A study of Drosophila melanogaster with 2 samples.

Results

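The miR-9 family and the hairpins next to it were followed in small RNA libraries from fly heads. Every mature product of the hairpins mir-9a, mir-9b, mir-9c, mir-79 and mir-306 was taken by name, from the 5p or the 3p arm. This gave 10 mature products of 5 hairpins, out of 240 known mature sequences in the series. All 10 were listed in the ethanol library and 9 in the control library. Comparison was limited to the 168 products whose reads summed to 100 or more over the pair of libraries, and 8 of these were members.

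Both libraries were made from adult female heads of Canton-S, a wild-type laboratory strain of Drosophila melanogaster, and the flies were 3 to 5 days old. The ethanol library was made from about 180 flies that had 15 minutes of ethanol vapour, by which time all were sedated, and 30 minutes of air without ethanol. The control library was made from about 180 flies given 45 minutes of air without ethanol. Heads of each group were pooled, so each group is 1 library and no test of the treatment was possible. The RNA integrity number was 6.40 for the ethanol and 6.80 for the control RNA.

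MicroRNAs guide Argonaute proteins to messenger RNAs that carry a match to the seed, bases 2 to 8 from the 5′ end, and lower their output. A hairpin precursor can give a product from either arm, and in most hairpins one arm is kept far more often. In the fly, miR-9a limits the number of sense organs by restraining senseless, a transcription factor of sense organ precursors. In cultured rat neurons, miR-9 rises on exposure to ethanol and lowers messenger RNA forms of the BK potassium channel, an ethanol-sensitive channel. Some of the 3p products of these hairpins carry the complement of the Brd box, a short motif in messenger RNAs of Notch target genes. In fly imaginal epithelia, miR-306 and miR-79 raise JNK signalling by lowering the RNF146 protein.

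The sequences below are shown because the members fall into groups by seed that cut across the hairpins. They are written 5′ to 3′ with T for U, as the authors deposited them, and the seed is in capitals. The 5p products of the 3 miR-9 hairpins share a single seed, CTTTGGT, and it is the seed of no other known sequence in the libraries. The 5p product of mir-79 is close to them and differs from miR-9a-5p in its first 8 bases by T1G and T8C, counted from the 5′ end.
dme-miR-9a-5p: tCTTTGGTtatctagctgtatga
dme-miR-9c-5p: tCTTTGGTattctagctgtaga
dme-miR-9b-5p: tCTTTGGTgattttagctgtatg
dme-miR-79-5p: gCTTTGGCgctttagctgtatga

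The 3p products of the same 4 hairpins form a second group. miR-9a-3p and miR-79-3p share the seed AAAGCTA and have the same base at 17 of 22 positions, although one comes from mir-9a and the other from the cluster. Relative to miR-9a-3p, the seed of miR-9c-3p carries A8T and that of miR-9b-3p carries A3G and A8T. TAAAGCT, the complement of the Brd box AGCTTTA, was the first 7 bases of miR-79-3p, miR-9a-3p and miR-9c-3p. It lay anywhere in 4 of the 240 known sequences (1.67%), the fourth being miR-4-3p. The other strand of the motif, AGCTTTA, lay in 1 known sequence, miR-9b-3p.
dme-miR-9a-3p: tAAAGCTAgcttaccgaagtta
dme-miR-79-3p: tAAAGCTAgattaccaaagcat
dme-miR-9c-3p: tAAAGCTTttataccaaagctc
dme-miR-9b-3p: tAGAGCTTtattaccaaaaacc

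The products of mir-306 belong to neither group. The seed of miR-306-5p, CAGGTAC, was shared with miR-275-3p, a product of another hairpin on chromosome arm 2L that is named because this search found it. miR-306-3p opens with a run of guanines, and 40.9% of its bases are guanine, which ranked 8 among the 168 compared products.
dme-miR-306-5p: tCAGGTACttagtgactctcaa
dme-miR-275-3p: tCAGGTACctgaagtagcgcgcg
dme-miR-306-3p: gGGGGTCActctgtgcctgtgc

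mir-9c, mir-306, mir-79 and mir-9b lie in this order on chromosome arm 2L, with no other annotated gene starting between them. They sit on the strand of grp, the gene of the fly Chk1 checkpoint kinase grapes, and in all 5 annotated grp transcripts they fall within introns. mir-9a lies on arm 3L in an exon of the single annotated transcript of the long noncoding RNA lncRNA:CR45916. These positions come from the Ensembl annotation of BDGP6.54, a later build than the BDGP5 named in the submitters' processing notes, so no coordinates are given. miR-9a-5p and miR-9c-5p are 3 single-base edits apart, and each of them is 4 from miR-9b-5p. The authors' counting could have split reads with errors among them. The nearest known sequence outside the 10 was 7 to 10 edits away.

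The ethanol library had 13128478 reads of known miRNAs, or 74.6% of its deposited total of 17600983. The control library had 13692046, or 78.98% of its total of 17337082. What these totals count is not stated. Levels are given as CPM, the count scaled to these known miRNA reads. Ratios are ethanol over control with an exact conditional binomial 95% interval. Intervals cover counting error only, since each group is 1 library. PCR copies were not told apart by molecular identifiers, so reads are not independent and the intervals can be too narrow even for that error. Head markers were abundant in both libraries. The neuronal miR-124-3p had 4205 CPM in the ethanol and 8113 CPM in the control library, and the 2 eye markers summed to 5314 and 5031 CPM. The 3 sense organ markers summed to 12306 and 9879 CPM. Among them miR-263a-5p had a ratio of 1.37, miR-263b-5p one of 1.05 and miR-279-3p one of 0.979. The posterior body marker miR-iab-4-5p had 12 ethanol and 14 control reads, and miR-iab-8-5p was listed in neither library. Of other tissues a sieved head sample could hold, the 2 muscle markers summed to 301670 CPM in the ethanol and 313755 CPM in the control library. The fat body marker miR-305-5p had 1141 CPM in the ethanol and 1079 CPM in the control library. The 2 gut markers summed to 132 and 125 CPM, and the 6 ovary and early embryo markers to 142 and 182 CPM. Most of that last sum was miR-5-5p, with 136 and 179 CPM. Of the rest, miR-6-3p (37 and 10 reads) and miR-286-3p (32 and 21) were higher in the ethanol library. miR-4-3p (5 and 9) was lower, miR-3-3p had 8 reads in each, and miR-309-3p was listed in neither.

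The members differed widely in level, and their order was nearly the same in both libraries. miR-79-3p was the most abundant, with 764.8 CPM in the ethanol library (rank 47 of all known products) and 871.5 CPM in the control library (rank 43). miR-9a-5p followed with 696.0 and 593.3 CPM, at rank 53 in each. Next came miR-9c-5p with 207 CPM in the ethanol and 158 CPM in the control library, and miR-9a-3p with 109 and 71.2 CPM. The counting intervals of these 4 did not overlap one another within a library.

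The remaining members were rare. miR-9b-5p had 12.0 CPM in the ethanol and 13.9 CPM in the control library, miR-9c-3p had 9.98 and 7.74 CPM, and miR-306-5p had 8.07 and 8.91 CPM. miR-306-5p and miR-9c-3p had overlapping counting intervals in both libraries and stood in opposite order in them. miR-306-3p had 3.35 CPM in the ethanol and 5.19 CPM in the control library, and miR-9b-3p had 1.75 and 0.949 CPM. miR-79-5p was listed in the ethanol library alone, with 6 reads (0.457 CPM, exact Poisson interval 0.168 to 0.995). The deposited tables list no count under 5, so its control level is not known and no ratio was formed. All the products are 22 or 23 bases long, and the part of length in this order was not tested.

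**Figure D1:**
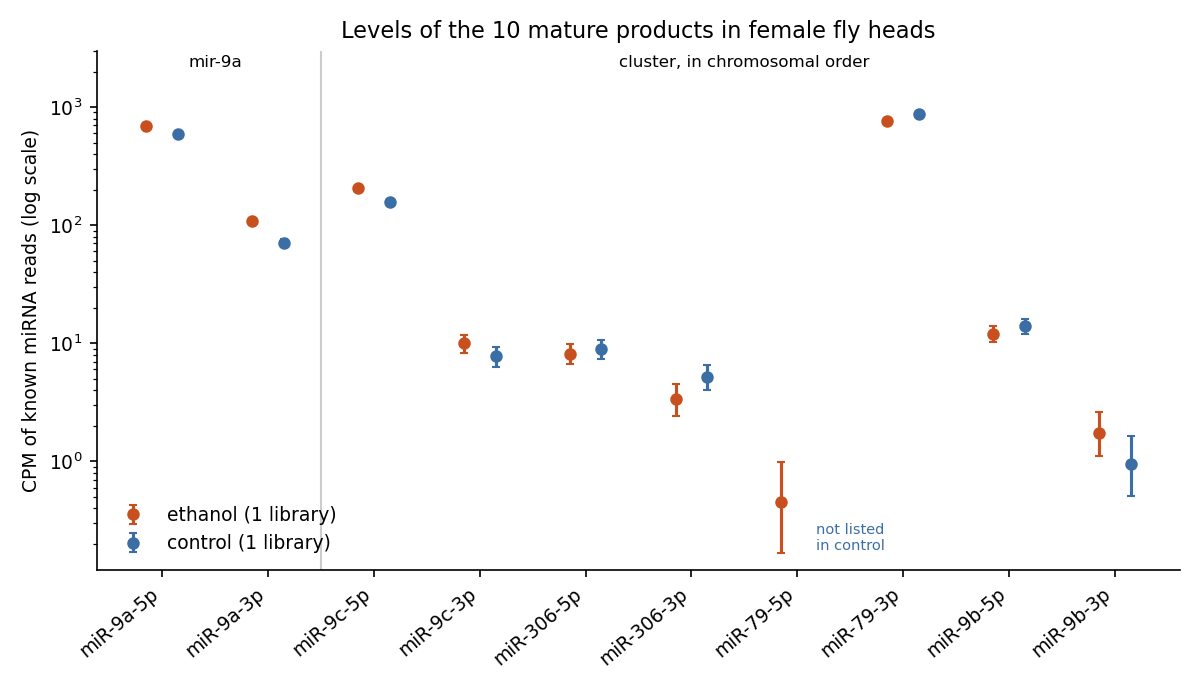
CPM of the 10 mature products (log axis) in the ethanol library (orange, left of each pair) and the control library (blue, right), with exact Poisson 95% intervals that cover counting error only. miR-79-3p and miR-9a-5p stand highest in both libraries, and miR-79-5p has 0.457 CPM in the ethanol library and is not listed in the control.

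The comparison of ethanol with control asks which miRNA levels differ after a sedating exposure. No member reached a 2-fold difference either way, and of all 168 compared products 3.57% did (2.38% higher and 1.19% lower in the ethanol library). At 1.5-fold, 2 of the 8 compared members were past the limit, miR-9a-3p higher and miR-306-3p lower in the ethanol library, against 23.2% of all compared products (12.5% higher, 10.7% lower). The ratio of miR-9a-3p was inside that limit under RPM (1.44), without the 4 most abundant products in the scaling (1.40) and after the correction for guanine content (1.37), and that of miR-306-3p was inside it after the guanine correction (0.832). With a minimum of 10 reads, which added miR-9b-3p, 0 of 9 members were past 2-fold and 3 were past 1.5-fold, against 5.43% and 26.7% of 221 products. The counting interval left out 1 for 5 of the 8 members, 3 higher and 2 lower, where 75% of all compared products had such an interval (36.9% higher, 38.1% lower). These shares of the members are near those of all products. The median log2 ratio of the 8 members was 0.044, with 4 above and 4 below 0, and that of all compared products was -0.020. After the guanine correction the medians were -0.098 for the members and -0.020 for all compared products. In pooled heads, fewer cells that make a miRNA and less of it in each cell cannot be told apart.

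Both products of mir-9a were higher in the ethanol library. miR-9a-5p, the main arm, had 9137 reads in the ethanol and 8123 in the control library, a CPM ratio of 1.17 (1.14 to 1.21). miR-9a-3p, the rarer arm, had 1425 ethanol and 975 control reads, a ratio of 1.52 (1.40 to 1.66), which was the highest among the compared members and ranked 19 of 168. The lower RNA integrity and the lower miR-124-3p level of the ethanol library stand beside these ratios, and their part in them was not tested.

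miR-9c-5p, which shares its seed with miR-9a-5p but comes from the cluster, was also higher in the ethanol library. It had 2721 ethanol and 2166 control reads, a ratio of 1.31 (1.24 to 1.39). Its partner arm miR-9c-3p had 131 and 106 reads and a ratio of 1.29 (0.990 to 1.68), so the interval just included 1.

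miR-9b-5p, the third holder of the seed, had 157 ethanol and 191 control reads, a ratio of 0.857 (0.690 to 1.06). The interval included 1, but with the 4 most abundant products left out of the scaling the ratio was 0.788 (0.634 to 0.978). miR-9b-3p, with 23 and 13 reads, was under the minimum for comparison and had a ratio of 1.85 (0.896 to 3.97).

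Summed over the 3 holders of the CTTTGGT seed, the libraries held 12015 ethanol and 10480 control reads, or 915 and 765 CPM. The ratio of the sum was 1.20 (1.16 to 1.23). It does not depend on how reads were divided among these similar sequences. miR-9a-5p made up 76.0% of it in the ethanol library (exact binomial interval 75.3 to 76.8%) and 77.5% in the control (76.7 to 78.3%). miR-9c-5p made up 22.6% (21.9 to 23.4%) and 20.7% (19.9 to 21.5%), and miR-9b-5p made up 1.31% (1.11 to 1.53%) and 1.82% (1.58 to 2.10%).

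miR-79-3p, the most abundant member, was slightly lower in the ethanol library. It had 10040 ethanol and 11932 control reads, a ratio of 0.878 (0.854 to 0.901). miR-306-5p had 106 and 122 reads with a ratio of 0.906 (0.692 to 1.19), and miR-306-3p had 44 and 71 reads with a ratio of 0.646 (0.433 to 0.955), the lowest of the members. miR-275-3p, which shares the seed of miR-306-5p and is known in the mosquito Aedes aegypti for a role in blood digestion, was far more abundant than it. miR-275-3p had 154860 ethanol and 188928 control reads, or 11796 and 13798 CPM, a ratio of 0.855 (0.849 to 0.861).

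**Figure D2:**
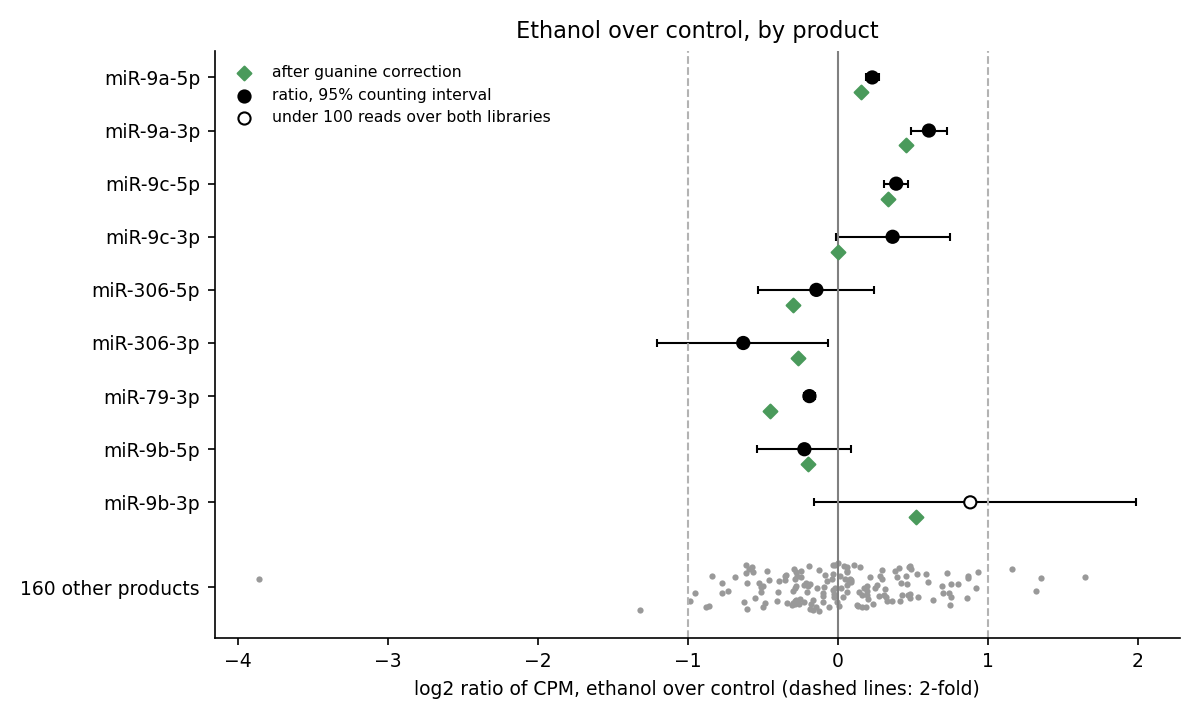
Log2 ratio of CPM, ethanol over control, for the 9 members listed in both libraries (circles with 95% counting intervals, open where there were under 100 reads) and for the other 160 compared products (grey, scattered vertically for view). Diamonds give the same log2 ratio after the guanine correction, and dashed lines mark 2-fold. miR-9a-5p, miR-9a-3p and miR-9c-5p have intervals above 0, miR-79-3p and miR-306-3p have intervals below 0, and no circle lies past 2-fold.

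Within the cluster, mir-9c had a ratio above 1 and the other 3 hairpins had ratios below 1 with overlapping intervals. The sum of mir-9c had a ratio of 1.31 (1.24 to 1.38), with 2852 ethanol and 2272 control reads. The sum of mir-79 had a ratio of 0.878 (0.855 to 0.902), that of mir-9b 0.920 (0.749 to 1.13) and that of mir-306 0.811 (0.650 to 1.01). Over the whole cluster, 13228 ethanol and 14601 control reads gave a ratio of 0.945 (0.923 to 0.967). That value follows mir-79, and without this hairpin the ratio was 1.24 (1.18 to 1.31), on the other side of 1. The value without mir-79 in turn follows mir-9c, which held most of the remaining 3182 ethanol and 2669 control reads.

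Ratios between members do not depend on the scaling between libraries, and by counting error alone mir-9c differed in them from its neighbours. Such separation was common. Over all 168 compared products the quartiles of the log2 ratio were -0.28 and 0.32, and 75% had a counting interval that left out 1. The share of mir-9c in the cluster's reads was 21.6% in the ethanol library (20.9 to 22.3%) and 15.6% in the control (15.0 to 16.2%). That of mir-79 was 75.9% (75.2 to 76.7%) and 81.7% (81.1 to 82.3%). The shares of mir-306, at 1.13% and 1.32%, and of mir-9b, at 1.36% and 1.40%, had overlapping intervals between the libraries. The odds of miR-9c-5p against miR-79-3p were 1.49-fold higher in the ethanol library (exact conditional interval 1.40 to 1.59). Against miR-9b-5p they were 1.53-fold higher (1.22 to 1.91), and against miR-306-5p 1.45-fold higher (1.10 to 1.91). The odds of miR-306-5p against miR-79-3p had a ratio of 1.03 (0.787 to 1.35), and those of miR-9b-5p against miR-79-3p one of 0.977 (0.784 to 1.22).

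Products that share a seed also differed in their ratios. The odds of miR-9a-3p against miR-79-3p were 1.74-fold higher in the ethanol library (1.59 to 1.89). miR-9a-3p made up 12.4% of the reads with the AAAGCTA seed in the ethanol library (11.83 to 13.05%) and 7.55% in the control (7.10 to 8.02%). Their sum, mostly miR-79-3p, had 11465 ethanol and 12907 control reads and a ratio of 0.926 (0.9033 to 0.9501). Among the 5p products, the odds of miR-9c-5p against miR-9a-5p had a ratio of 1.12 (1.05 to 1.19). Those of miR-9a-5p against miR-9b-5p had one of 1.37 (1.10 to 1.70). Odds were computed for 10 pairs of members; these and the odds of the arms come from 1 pair of libraries, and the spread between libraries of a single treatment is unknown.

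The arm that dominated each hairpin was the same in both libraries. mir-79 gave almost only its 3p product, 99.94% of 10046 ethanol reads, and all of its 11932 listed control reads. The other 4 hairpins gave mostly 5p. The 3p share of mir-9a was 13.5% in the ethanol library (12.8 to 14.2%) and 10.7% in the control (10.1 to 11.4%), an odds ratio of 1.30 (1.19 to 1.42). That of mir-9c was 4.59% and 4.67%, with an odds ratio of 0.984 (0.751 to 1.29). mir-306 was the least one-sided, with a 3p share of 29.3% (22.2 to 37.3%) in the ethanol library and 36.8% (30.0 to 44.0%) in the control and an odds ratio of 0.714 (0.439 to 1.15). In mir-9b the 3p share was 12.8% (8.28 to 18.6%) and 6.37% (3.44 to 10.7%), with an odds ratio of 2.15 (1.01 to 4.78) that rests on 36 reads of the 3p arm. Over the 61 hairpins with both arms compared, the median arm shift either way was 1.27-fold, and 11 had a shift of 2-fold. mir-9b is not among these hairpins, since its 3p product was under the minimum for comparison. After the guanine correction the odds ratios were 1.23 for mir-9a, 0.792 for mir-9c, 1.02 for mir-306 and 1.64 for mir-9b.

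**Figure D3:**
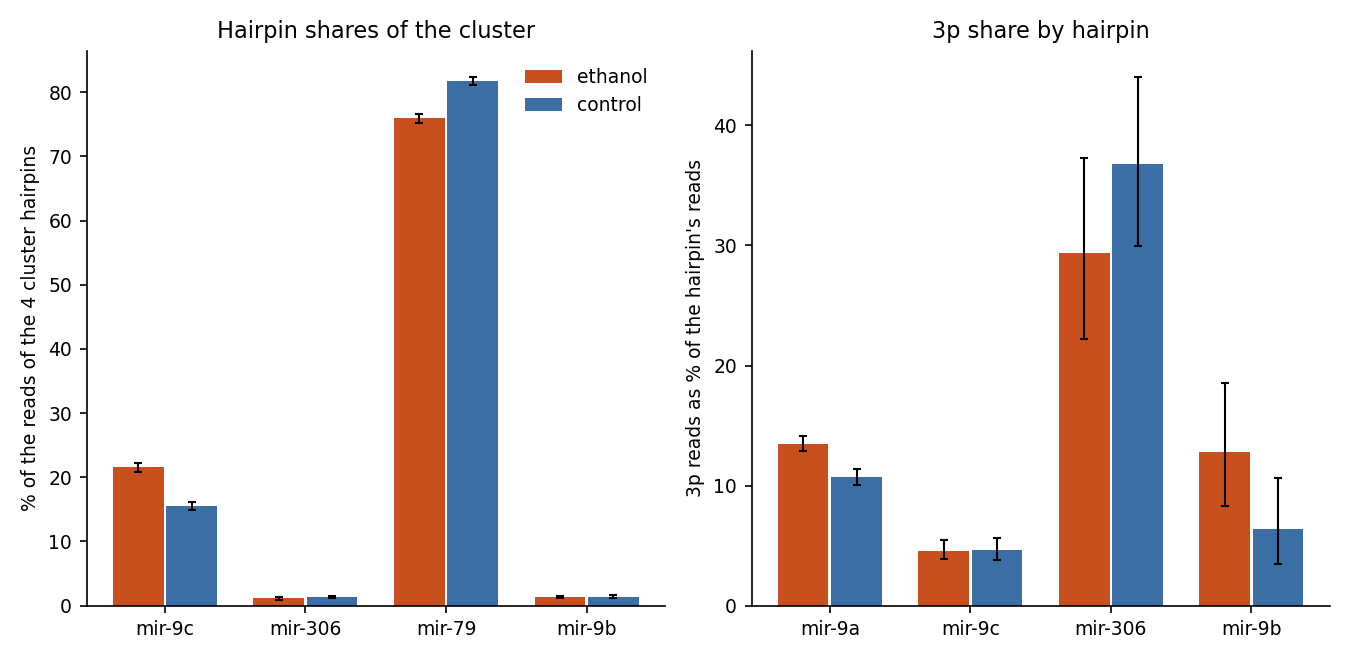
Left, the share of each hairpin in the reads of the 4 cluster hairpins, and right, the 3p reads as a share of each hairpin's reads, in the ethanol library (orange) and the control library (blue), with exact binomial 95% intervals for counting error only. mir-9c takes 21.6% of the cluster's reads in the ethanol library and 15.6% in the control, and the 3p share of mir-9a is 13.5% and 10.7%.

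Guanine content is given beside these ratios because, over all 168 compared products, the ratio was lower for sequences with more guanine (Spearman's rho -0.50, Pearson's r -0.38, across products that share both libraries). A linear fit fell by 0.23 in log2 ratio for each further 10 percentage points of guanine. Corrected for this fit, the log2 ratio of miR-306-3p was -0.27, against -0.63 before, and that of miR-9c-3p, with 9.09% guanine, was 0.0022, against 0.37 before. Members near the middle of the range moved less. miR-9a-5p, with 21.7% guanine, had a corrected log2 ratio of 0.16 (0.23 before), and miR-9c-5p, with 22.7%, had 0.34 (0.39 before). For miR-79-3p, with 13.6% guanine, the corrected value was -0.45, farther from 0 than the uncorrected -0.19, and for miR-9a-3p, with 18.2%, it was 0.45 (0.61 before). The value of miR-306-5p, also with 18.2%, was -0.30 (-0.14 before), and that of miR-9b-5p, with 26.1%, was -0.20 (-0.22 before). The part of guanine content in the members' ratios was not tested.

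**Figure D4:**
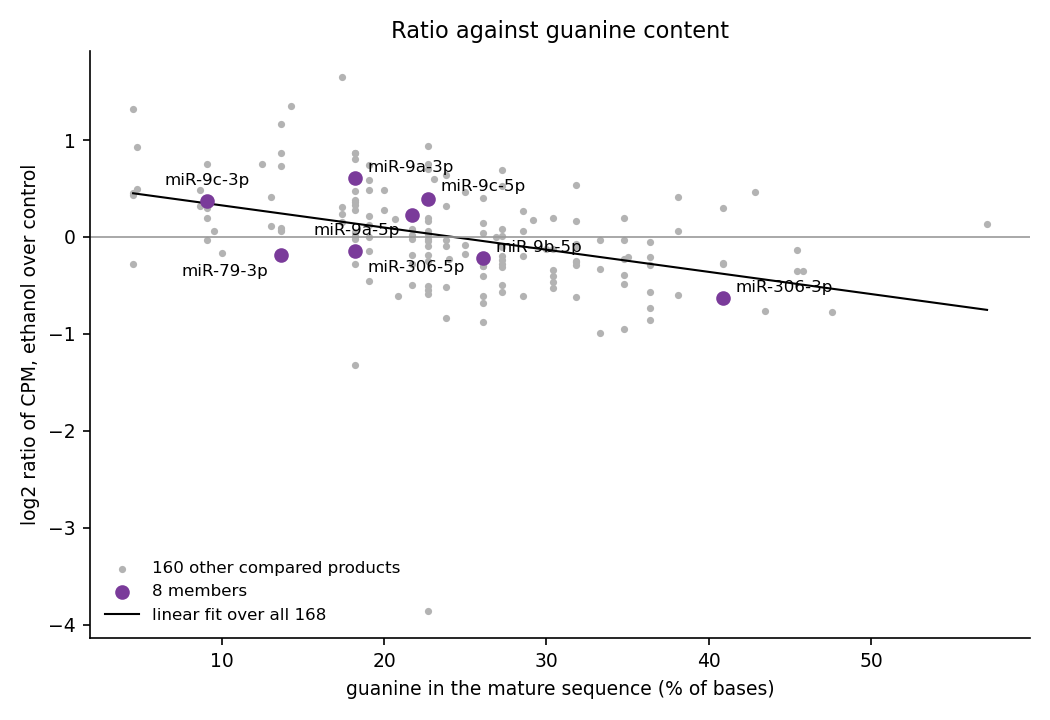
Log2 ratio of CPM, ethanol over control, against the percentage of guanine in the mature sequence, for 8 members (purple) and the other 160 compared products (grey), with the linear fit over all 168. miR-306-3p lies at 40.9% guanine, miR-9c-5p and miR-9a-3p lie above the line, and miR-79-3p lies below it.

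The authors' deposited table marks 14 of 196 known products as different between the libraries, and none of the 9 members in it. The rule behind the mark is not stated here, so a missing mark does not say that a member was equal in the libraries. In the authors' deposited table the log2 ratio of RPM, ethanol over control, was 0.53 for miR-9a-3p, 0.31 for miR-9c-5p, 0.15 for miR-9a-5p and -0.27 for miR-79-3p. For miR-306-3p the authors' deposited table gives -0.71. P-values of that table compare 2 libraries and not the treatments, and are not used here.

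Other miRNAs tied to the same motifs or to ethanol were set beside the members. miR-4-3p, the only product outside the 5 hairpins with the Brd box complement, had 5 ethanol and 9 control reads. Its partner arm miR-4-5p lacks that complement and holds CTTTGGT away from the seed position. It was listed in the control library alone, with 5 reads. Most reads with the Brd box complement at the start were those of miR-79-3p and miR-9a-3p. Among the 8 K-box 3p products, whose seeds match another motif of Notch target genes, 7 were compared, 5 with intervals above 1 and 2 below, with a median log2 ratio of 0.28 (0.17 after the guanine correction). Over all 168 compared products 62 had intervals above 1 and 64 below, and the median was -0.020. miR-2c-3p, at 0.754 (0.696 to 0.817), and miR-308-3p, at 0.069 (0.050 to 0.093), were the lower ones. miR-7-5p, which matches the GY box, had 9816 ethanol and 8922 control reads and a ratio of 1.15 (1.11 to 1.18). Among the 10 products of let-7, miR-7, miR-8, miR-33 and miR-124, 5 had intervals above 1 and 5 below, with a median log2 ratio of -0.072. They ran from 0.518 (0.513 to 0.524) for miR-124-3p to 1.66 (1.5003 to 1.8294) for let-7-3p.

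Products outside the 5 hairpins with the most similar levels were found by distance on log2 CPM over the 2 libraries. miR-13b-3p lay closest to miR-9a-5p, at a distance of 0.082, and then miR-7-5p at 0.17. For miR-79-3p they were miR-993-3p at 0.20 and miR-193-5p at 0.21, and for miR-9c-5p they were miR-219-5p at 0.27 and miR-315-5p at 0.45. miR-929-5p, at 0.031, and miR-1010-5p, at 0.12, were nearest to miR-9b-5p. miR-281-1-5p, at 0.062, and miR-981-5p, at 0.17, were nearest to miR-306-5p, and miR-1016-5p, at 0.31, and miR-987-3p, at 0.33, to miR-306-3p. With 2 libraries this likeness is mainly one of level, and the ratios of neighbours can differ. miR-315-5p had a ratio of 0.935 where miR-9c-5p had 1.31, while miR-13b-3p had 1.26 where miR-9a-5p had 1.17.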

How the data were processed

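Small RNA of 1 ethanol and 1 control library was sequenced. The authors deposited raw read counts per mature miRNA, an RPM value (the count scaled to a library total of unstated meaning), and a table with a log2 ratio and a p-value per product, per the file headers. RPM computed from count and total matched the deposited value within 4.9e-05. Per the submitters' processing notes the build was BDGP5. The aligner and the counter: not given in the sources used here. No count under 5 is listed.

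For the 6 names listed more than once the largest count was kept, and the 5p products of mir-276a and mir-276b, 1 sequence, were used once. Counts were scaled to CPM over known miRNA reads, and products were compared where their reads summed to 100 or more. Without replicates no test was run. Exact intervals (95%) were tested on simulated independent Poisson counts, which hold no PCR copies and no spread between libraries of a treatment. That test cannot show how the intervals perform on these reads. A difference was called at 2-fold and, as a second limit, at 1.5-fold. The guanine correction subtracts a linear fit and keeps the median of all products. All members and the nearest 2 products in level to each of 6 listed members are named. These 6 were not chosen by level, and miR-9a-3p, more abundant than the listed miR-306 products, was not among them. Members, lists and the guanine check were chosen with earlier results of these data known. Alternatives used edgeR 4.0.16 TMM and DESeq2 1.42.0 size factors (R 4.3.3); all else used SciPy 1.17.1, numpy 2.4.6 and pandas 2.3.3 in Python 3.11.15.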

Additional observations from a re-analysis of the deposited data

How the results depend on the processing

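All 9 members with a ratio kept its direction under the 6 alternatives tried (RPM, TMM, DESeq2 size factors, scaling without the 4 most abundant products, repeated names summed, guanine correction), with miR-9c-3p nearest to 1 at 1.0015 after the guanine correction. Leaving the 4 most abundant products out of the scaling moved the median log2 ratio of all compared products by -0.12, and values under it are lower by that amount. The ratio of the CTTTGGT sum was 1.13 under RPM, 1.10 without the 4 products and 1.14 after the guanine correction. That of the cluster was 0.892, 0.868 and 0.813 under the same settings, and 1.24 without mir-79, which holds most of its reads; the guanine-corrected sums and the value without mir-79 were chosen after seeing the data. No member reached 2-fold under any scaling or read minimum tried, while 2 of the 8 compared members were past 1.5-fold, and 3 of 9 with a minimum of 10 reads. The 1.5-fold difference of miR-9a-3p was lost under 3 settings (1.44 under RPM, 1.40 without the 4 products, 1.37 after the guanine correction) and those of miR-306-3p (0.832) and miR-9b-3p (1.43) after the guanine correction. Of all products 6 reached 2-fold, 12 did with a minimum of 10 reads, 12 with no minimum, and 39 were past 1.5-fold. No paired analysis was possible because each group is 1 library. Depth limits miR-306 and miR-9b products, with 36 to 348 reads each over both libraries. It also limits miR-9c-3p, with 237, and miR-79-5p, with 6.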
